A study of Mus musculus with 160 samples.

Results

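Liver RNA of Q175 mice given 100 mg/kg of CHDI-00390576 was compared with liver RNA of Q175 mice given 30 mg/kg, to find which responses of the liver needed the higher dose. The libraries were chosen by the tissue and dose in their titles, 8 for each dose, so that 16 of the 160 libraries of the series entered the comparison. All mice were on the C57BL/6J background, and all 16 were heterozygous for the Q175 knock-in, which puts a long CAG repeat like that of Huntington's disease into 1 copy of Htt. CHDI-00390576 inhibits class IIa histone deacetylases. Dosing was oral and b.i.d., started when the mice were 4 weeks old and ended at 6 months of age, when tissue was taken. Each dose group held 4 males and 4 females. Of the other liver libraries, 8 came from Q175 mice on vehicle and 8 from wild-type (WT) mice on vehicle, with the same ages and the same split by sex. All WT mice of the liver libraries were on vehicle, so both doses were seen only in animals with the mutation.

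The class IIa enzymes, made from Hdac4, Hdac5, Hdac7 and Hdac9, carry little catalytic activity of their own and act mainly as scaffolds that bring transcription factors such as MEF2 together with other repressors. The hepatocyte secretes most plasma proteins, complement and clotting factors among them, and it clears foreign compounds. Clearance is adjusted by receptors and sensors: the constitutive androstane receptor (CAR) turns on Cyp2b and Cyp2c genes, NRF2 turns on glutathione transferases and enzymes that make NADPH, and PPARα turns on the oxidation of fatty acids in peroxisomes and mitochondria.

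The 100 mg/kg livers differed from the 30 mg/kg livers in 94 of 15001 genes tested (0.627%), at an adjusted p below 0.05 in edgeR's quasi-likelihood test with Benjamini-Hochberg adjustment. Of these, 45 genes were higher at 100 mg/kg (0.3%) and 49 were lower (0.327%), and the median log2 difference of all genes tested was -0.0012. Most differences were modest: 7 of the higher and 12 of the lower genes differed by more than 2-fold, and the smallest difference among the 94 was 1.18-fold. The 8 libraries of each dose did not overlap for 5 of the 45 higher genes (0.0733% of all genes tested had such a gap upward) and 8 of the 49 lower ones (0.08%). Within each sex they did not overlap for 16 (0.24%) and 22 (0.247%). Among called genes with a mean of at least 1 CPM at either dose, the largest rises were those of Mogat1, Abcc4, Cyp2b10, Kbtbd12 and Me1, and the largest falls those of Clec2h, Adgrf1, C8a, C9 and Enho. With values in FPKM and limma, 184 genes passed, 142 higher and 42 lower; this alternative changed the test and the values together. The count also turned on single libraries. It fell to 40 without 30 mg/kg M2, to 47 without 100 mg/kg F1 and to 47 without 100 mg/kg M4, to 48 without 30 mg/kg F3 and to 58 without 30 mg/kg M3, and it rose to 236 without 30 mg/kg F4.

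**Figure D1:**
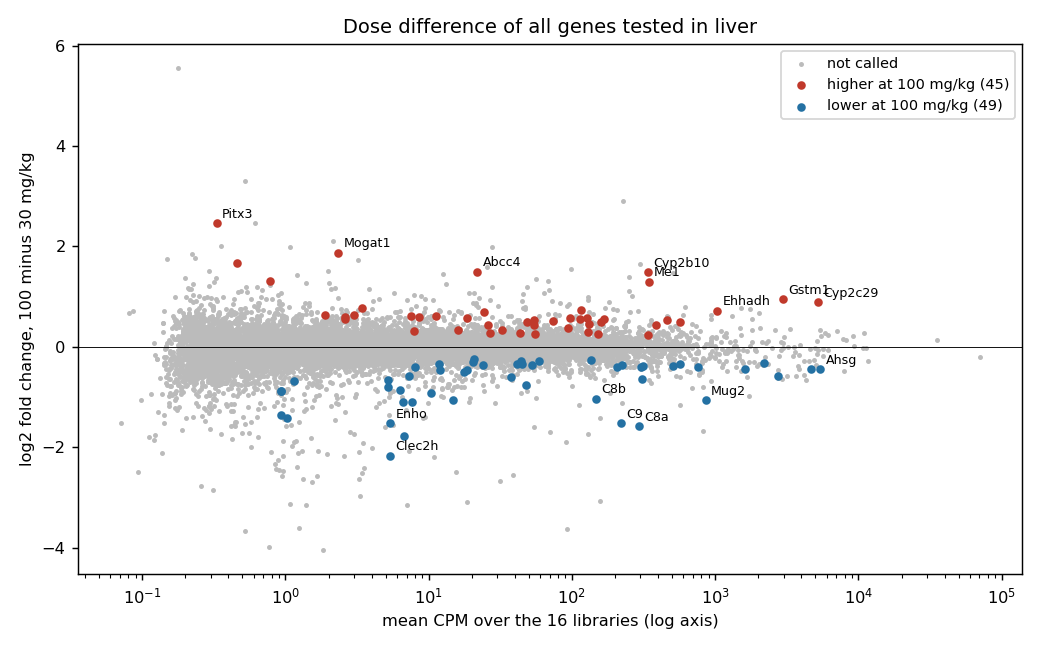
The log2 fold change between 100 and 30 mg/kg (y axis) is plotted against the mean CPM (counts scaled to a common library size, in which a value of 1 is 1 count per M counts) over the 16 libraries (x axis, log scale) for the 15001 genes tested, with 45 genes higher at 100 mg/kg in red and 49 lower in blue. Many grey points of low CPM lie as far from 0 as the coloured ones and did not pass the test.

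Set against Q175 vehicle, the doses differed in how many genes passed: 1028 genes at 100 mg/kg (6.85%), 617 higher (4.11%) and 411 lower (2.74%), and 0 at 30 mg/kg (0%). At 30 mg/kg, 573 genes (3.82%) had an unadjusted p below 0.05, the smallest adjusted p was 0.283, and DESeq2 called 4 genes. The count at 100 mg/kg fell to 652 without Q175 vehicle F4. The contrast of the doses and the contrast of 30 mg/kg with vehicle share the 30 mg/kg libraries, and genes picked for a large gap between the doses tend for that reason alone to have a small value at 30 mg/kg. With that in mind, the 45 higher genes had a median log2 change against vehicle of 0.69 at 100 mg/kg and 0.16 at 30 mg/kg, and the 49 lower genes one of -0.56 and -0.055. For 12 of the 45 higher and 3 of the 49 lower genes, the 95% interval of the change at 30 mg/kg excluded 0 on the same side. It included 0 for 32 and 45 of them, and lay on the opposite side for 2 genes.

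**Figure D2:**
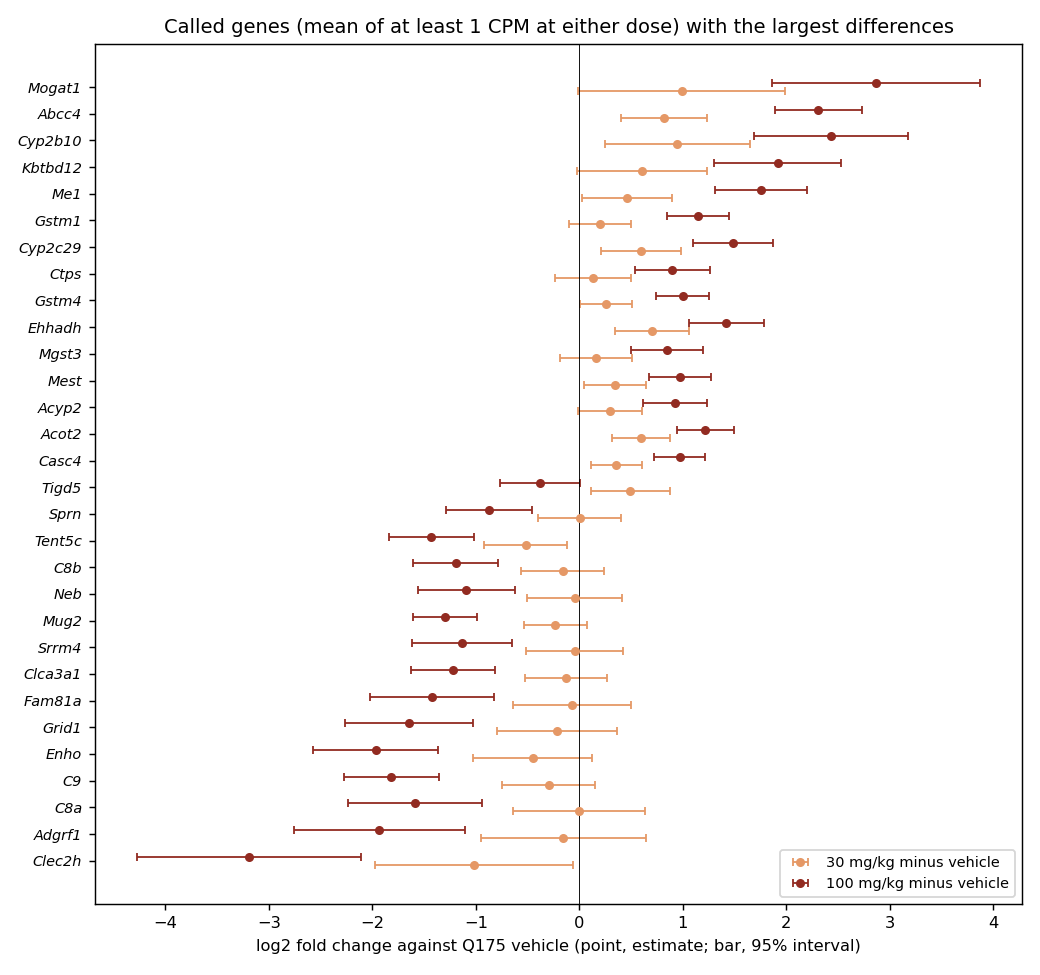
Log2 fold changes against Q175 vehicle at 30 mg/kg (orange) and 100 mg/kg (dark red), with 95% intervals, for the 15 genes that rose most and the 15 that fell most between the doses among called genes with a symbol and a mean of at least 1 CPM at either dose, in the order of that difference. Abcc4 was at 0.82 and 2.31 and Ehhadh at 0.71 and 1.42, whereas C8a was at 0.00 and -1.59.

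The liver libraries held between 33.5 and 41.4 M estimated counts each, M standing for mega. The totals fell into a lower and an upper range parted at 37 M, and 4 of the 100 mg/kg libraries but 1 of the 30 mg/kg libraries lay in the lower range. With this as a covariate, an alternative chosen after seeing the data, 52 genes were called, 49 of them among the 94. Sex-linked RNA matched the labelled sex in all 32 libraries. Htt, which carries the knock-in allele, had 16.2 to 21.8 CPM (median 18.9) at 30 mg/kg and 11.3 to 23.7 CPM (median 18.1) at 100 mg/kg, and the groups overlapped (log2 difference -0.04, SE 0.15, adjusted p = 0.94). These counts do not tell the expanded allele from the normal one. The targets of the compound did not pass the test either. Hdac5 had a median of 39.0 CPM at 30 mg/kg and 40.9 CPM at 100 mg/kg (log2 difference 0.11, 95% interval -0.12 to 0.35), and the differences of Hdac4, Hdac7 and Hdac9 were -0.14, -0.02 and -0.13. The summed level of 10 hepatocyte markers was 94302 to 116847 CPM at 30 mg/kg and 77578 to 99897 CPM at 100 mg/kg. That of 21 lymphocyte and neutrophil markers was 14.8 to 33.9 CPM and 21.5 to 85.1 CPM, although the median difference of the 17 tested was -0.11. Ighm, which is on this list, made up 70.8 of the 85.1 CPM in 100 mg/kg M1.

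The genes that fell at the higher dose held 3 parts of the membrane attack complex, the pore that complement drives into a target membrane. C8a and C8b, the genes of the C8 α and β chains, are neighbours on chromosome 4 with 0 other protein-coding genes between them, and C9, whose product forms the wall of the pore, lies on chromosome 15. Their promoters are shown because the 3 genes moved together. Each is the 300 bases around the start site from RefSeq (build GRCm38.p6), read 5′ to 3′ on the gene's strand, and the capitals in C8a mark a match to TTCNNNGAA, the core letters of a STAT site. The build of the deposited tables is not given in the sources used here, so these coordinates belong to RefSeq alone.
C8a, chr4:104876349-104876648, minus strand: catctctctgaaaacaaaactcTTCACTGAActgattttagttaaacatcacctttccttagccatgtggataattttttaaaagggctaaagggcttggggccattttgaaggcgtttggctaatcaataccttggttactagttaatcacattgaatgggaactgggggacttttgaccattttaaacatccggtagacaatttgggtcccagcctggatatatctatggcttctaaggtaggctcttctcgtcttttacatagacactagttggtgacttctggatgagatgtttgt
C8b, chr4:104766067-104766366, plus strand: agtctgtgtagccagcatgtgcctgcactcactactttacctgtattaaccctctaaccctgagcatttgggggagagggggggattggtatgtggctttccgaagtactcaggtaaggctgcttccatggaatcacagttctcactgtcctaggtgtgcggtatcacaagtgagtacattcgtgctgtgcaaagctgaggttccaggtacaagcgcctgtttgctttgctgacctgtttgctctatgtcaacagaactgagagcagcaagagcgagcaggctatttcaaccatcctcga
C9, chr15:6445096-6445395, plus strand: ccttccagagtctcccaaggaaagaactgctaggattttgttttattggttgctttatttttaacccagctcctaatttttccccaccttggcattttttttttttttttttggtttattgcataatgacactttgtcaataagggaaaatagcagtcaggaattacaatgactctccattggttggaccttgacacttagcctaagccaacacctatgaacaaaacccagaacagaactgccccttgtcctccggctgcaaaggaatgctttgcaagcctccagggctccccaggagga
Of the 37 lower genes with a RefSeq promoter, 5 held TTCNNNGAA (C8a, Cpn2, Gm4788, Nox4 and Vtn), as did 3 of the 42 higher genes and 8.3% of the 32851 promoters in the table. This motif reads the same on both strands.

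C9 had 130.3 to 407 CPM (median 340) at 30 mg/kg and 41.6 to 231 CPM (median 119) at 100 mg/kg. Males averaged more C9 RNA than females, 374 against 243 CPM at 30 mg/kg and 212 against 47.2 CPM at 100 mg/kg. The doses overlapped over all 16 libraries but not within a sex: 4 females had 41.6 to 56.4 CPM at 100 mg/kg and 130.3 to 359 CPM at 30 mg/kg, and 4 males had 182 to 231 CPM and 321 to 407 CPM. C9 fell by 1.52 on the log2 scale (SE 0.23, adjusted p = 0.000974). It was at -0.30 (95% interval -0.74 to 0.15) at 30 mg/kg against vehicle and at -1.82 at 100 mg/kg.

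C8a had 129.6 to 569 CPM (median 481) at 30 mg/kg and 33.2 to 373 CPM (median 188) at 100 mg/kg, and C8b had 84.3 to 283 CPM (median 197) and 31.0 to 203 CPM (median 102). Within each sex, every 100 mg/kg library lay below every 30 mg/kg library for both genes. C8a fell by 1.59 (SE 0.32, adjusted p = 0.0158) and C8b by 1.04 (SE 0.20, adjusted p = 0.0112). Against vehicle, C8a was at 0.00 (95% interval -0.64 to 0.63) at 30 mg/kg and at -1.59 at 100 mg/kg, and C8b was at -0.16 and -1.20. Both genes stayed past the threshold in each of the 16 fits that left out a library, as did C9. C8a missed it with only the 2 dose groups in the fit.

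**Figure D3:**
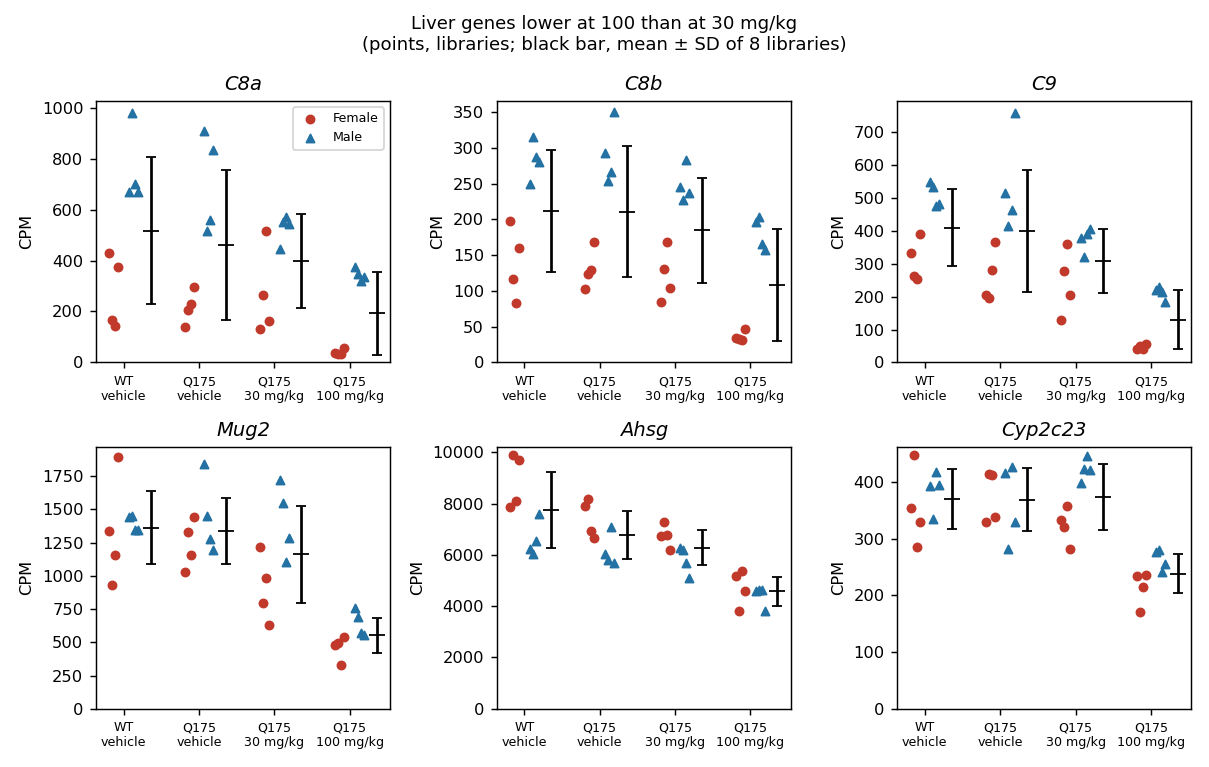
CPM of 6 genes that were lower at 100 than at 30 mg/kg, by treatment arm, with 1 point for each library (red circles, females; blue triangles, males) and the mean ± SD of 8 libraries in black. C8a, C8b and C9 averaged higher in males than in females in every arm, and both sexes were lowest at 100 mg/kg, where the 4 female libraries of C8a had 33.2 to 55.2 CPM.

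Beyond the pore, the list of 35 complement and coagulation genes tested had 6 members that fell and 0 that rose, and its median log2 difference was -0.28 beside -0.0012 for all genes. Among all genes tested 0.327% fell between the doses, and 2.74% fell at 100 mg/kg against vehicle. Against vehicle, 20 of the 35 fell at 100 mg/kg (median -0.31) and 0 at 30 mg/kg (median -0.055). The other 3 that fell between the doses were Cfi, the protease that inactivates C3b and C4b, Vtn (vitronectin, which binds the assembling pore and blocks it) and Plg (plasminogen, the precursor of the protease that dissolves fibrin), all 3 named after their values were seen. Cfi had 485 to 755 CPM at 30 mg/kg and 402 to 475 CPM at 100 mg/kg, so that the groups did not overlap, and it fell by 0.39 (SE 0.08, adjusted p = 0.0219). Vtn fell by 0.44 (adjusted p = 0.038) and Plg by 0.31 (adjusted p = 0.0487), with overlapping groups. Without 30 mg/kg F3, 3 members of the list passed, and over the 16 fits that left out a library 3 to 8 did. Cfi lost its call without 30 mg/kg F3 and without 100 mg/kg F1, Vtn in 9 and Plg in 12 of the 16 fits.

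Other secreted proteins fell with them. The list of 25 plasma proteins had 3 members that fell, Serpinf2, Ahsg and Igf1, and 0 that rose, with a median of -0.18. Against vehicle its median was -0.21 at 100 mg/kg, with 9 members lower, and -0.012 at 30 mg/kg. The shares of all genes tested that fell were 0.327% between the doses and 2.74% at 100 mg/kg against vehicle. Ahsg (fetuin-A, a carrier of calcium phosphate) had 5113 to 7281 CPM (median 6235) at 30 mg/kg and 3796 to 5389 CPM (median 4613) at 100 mg/kg. The groups overlapped only between the sexes, and within each sex they did not. Ahsg fell by 0.45 (SE 0.09, adjusted p = 0.0111). Serpinf2 (α2-antiplasmin, the main inhibitor of plasmin) had 641 to 1058 CPM (median 838) and 539 to 732 CPM (median 648), and fell by 0.40 (SE 0.08, adjusted p = 0.0122). The growth hormone target Igf1, which the liver releases as the main endocrine growth factor, had 293 to 420 CPM and 205 to 319 CPM, and fell by 0.39 (adjusted p = 0.0307). Igf1 lost its call in 9 of the 16 fits, and leaving out a library gave 2 to 5 of the 25, with 5 without 30 mg/kg F4.

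Genes of the protease-trapping α2-macroglobulin family fell too. Mug2, a murinoglobulin, had 630 to 1725 CPM (median 1162) at 30 mg/kg and 330 to 757 CPM (median 546) at 100 mg/kg. It fell by 1.07 (SE 0.15, adjusted p = 0.000401), was at -0.23 at 30 mg/kg against vehicle, and did not overlap within either sex. Its neighbour and close paralog Mug1 fell by 0.58 (adjusted p = 0.0368) and Pzp, of the same family, by 0.44 (adjusted p = 0.0307). How the authors' counting divided reads between Mug1 and Mug2 is not given in the sources used here, so their separate values are uncertain. Cpn2, the large subunit of carboxypeptidase N, which trims complement and kinin peptides, fell by 0.40 (adjusted p = 0.021), and Itih1, a heavy chain of the inter-α-trypsin inhibitor, by 0.35 (adjusted p = 0.0363). Mug1, Pzp, Cpn2 and Itih1 were named after their values were seen. Mug1, Pzp and Itih1 lost their calls in 11, 9 and 8 of the 16 fits.

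The list of hepatocyte markers holds genes of secreted plasma proteins itself, among them Alb, Apoa1, Ttr, Apob and Serpina1a. It is therefore not independent of the falls above. Its members moved with this group: 10 of 10 had values below 0 between the doses (median -0.25), 0 passed the test, and 0 of the 10 were at 0 counts. The part of this shift in the falls of secreted proteins was not tested, and in RNA from whole liver fewer hepatocytes and less RNA of these genes per hepatocyte cannot be told apart. C8a, C8b, C9 and Mug2, picked for the size of their falls, fell by more than 1 on the log2 scale. The size of their falls was not tested against the shift of the markers.

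Genes that handle foreign compounds were among those that rose with the dose. In the list of 28 CAR targets 5 rose (Abcc4, Cyp2b10, Cyp2c29, Pgd and Ugt2b34) and 0 fell, with a median of 0.45. In the list of 24 NRF2 targets 5 rose (Abcc4, Entpd5, Ephx1, Gstm1 and Tkt) and 0 fell, with a median of 0.39. Lists of 2 further receptors moved less. Of 17 targets of the pregnane X receptor, 2 rose (Gstm1, also on the NRF2 list, and Gstm4) and 0 fell, with 6 values below 0 (median 0.10). Of 10 targets of the aryl hydrocarbon receptor 0 passed, with 2 values below 0 (median 0.13). Beside these counts, 0.3% of all genes tested rose between the doses. Against vehicle the CAR median was 0.59 at 100 mg/kg, with 13 members higher, and 0.20 at 30 mg/kg. The NRF2 median was 0.44, with 11 members higher, and 0.058. Of all genes tested, 4.11% were higher at 100 mg/kg against vehicle. The counts depended on single libraries: leaving out each of the 16 gave 1 to 7 CAR targets, with 1 without 30 mg/kg M2 and 2 without 30 mg/kg F3, and 3 to 7 NRF2 targets, with 3 without either of these. With the library total as a covariate 1 CAR target and 3 NRF2 targets passed.

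Abcc4, a pump that exports conjugated compounds and bile acids into the blood, had 4.97 to 19.4 CPM (median 11.4) at 30 mg/kg and 11.3 to 47.5 CPM (median 35.1) at 100 mg/kg. Females averaged more than males, 16.8 against 7.01 CPM and 41.2 against 22.2 CPM, and within each sex the doses did not overlap. Abcc4 rose by 1.49 on the log2 scale (SE 0.20, adjusted p = 0.000384). Its values stepped up with the dose: against vehicle it was at 0.82 (95% interval 0.40 to 1.23) at 30 mg/kg and at 2.31 at 100 mg/kg. Me1, the cytosolic malic enzyme that makes NADPH for fat synthesis and for glutathione, had 127 to 275 CPM (median 197) at 30 mg/kg and 396 to 604 CPM (median 505) at 100 mg/kg, with no overlap. It was not on the CAR or NRF2 lists used here, but on those of lipogenesis and of other PPARα targets. Me1 rose by 1.30 (SE 0.21, adjusted p = 0.00225), and was at 0.46 (0.03 to 0.89) at 30 mg/kg and at 1.76 at 100 mg/kg against vehicle. Both genes kept their calls in each of the 16 fits that left out a library.

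The promoters of Abcc4 and Me1 are shown because both hold a match to TGACNNNGC, the core letters of the antioxidant response element that NRF2 binds, on one strand or the other. They are again 300 bases from RefSeq (build GRCm38.p6), and for each gene 1 of its 2 RefSeq promoters is given. The capitals mark that core, which in Abcc4 reads as its reverse complement, and in Abcc4 also a later match to TTCNNNGAA.
Abcc4, chr14:118706170-118706469, minus strand: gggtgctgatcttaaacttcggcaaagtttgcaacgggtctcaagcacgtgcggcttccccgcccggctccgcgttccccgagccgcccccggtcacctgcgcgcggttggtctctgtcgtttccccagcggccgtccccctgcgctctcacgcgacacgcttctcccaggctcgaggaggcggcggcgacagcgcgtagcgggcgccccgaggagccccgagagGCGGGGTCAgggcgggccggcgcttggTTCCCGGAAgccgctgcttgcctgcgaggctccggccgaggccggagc
Me1, chr9:86695865-86696164, minus strand: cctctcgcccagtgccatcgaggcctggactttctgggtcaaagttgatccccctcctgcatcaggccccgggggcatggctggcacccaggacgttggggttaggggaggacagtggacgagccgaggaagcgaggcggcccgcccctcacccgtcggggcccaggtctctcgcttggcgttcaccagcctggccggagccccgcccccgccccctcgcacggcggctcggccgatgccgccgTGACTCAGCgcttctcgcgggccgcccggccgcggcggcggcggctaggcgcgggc
Of the 42 higher genes with a promoter, 9 held the core in at least 1 promoter (Abcc4, Acyp2, Ctsd, Ehhadh, Kbtbd12, Me1, Pctp, Pgd and Spryd7), as did 3 of the 37 lower genes. It is in 12.4% of the 32851 promoters, some genes having more than 1. A match is a description of the letters and does not show binding.

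Of the 47 conjugating enzymes tested, 4 rose and 0 fell, 3 of them glutathione transferases (median of the list 0.20, with 10 values below 0). The share of all genes tested that rose was 0.3%. Gstm1, which joins glutathione to electrophiles, had 1371 to 2522 CPM (median 2083) at 30 mg/kg and 2806 to 4733 CPM (median 4268) at 100 mg/kg, with no overlap. It rose by 0.95 (SE 0.15, adjusted p = 0.00113) and was at 0.20 (-0.10 to 0.50) at 30 mg/kg against vehicle and at 1.15 at 100 mg/kg. Gstm4 had 63.2 to 121 CPM (median 86.8) and 118 to 189 CPM (median 143), overlapping only between the sexes, and rose by 0.74 (SE 0.12, adjusted p = 0.00254). At 30 mg/kg against vehicle it was at 0.26 (0.005 to 0.51). Gstm1 and Gstm4 are neighbouring paralogs, and reads may have been divided between them. The others were Mgst3, a microsomal glutathione transferase (0.69, adjusted p = 0.0491, with the call lost in 12 of the 16 fits), and Ugt2b34, a UDP-glucuronosyltransferase (0.49, adjusted p = 0.0275). Leaving out a library gave 2 to 6 of the 47, with 2 without 30 mg/kg F3 or M2.

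**Figure D4:**
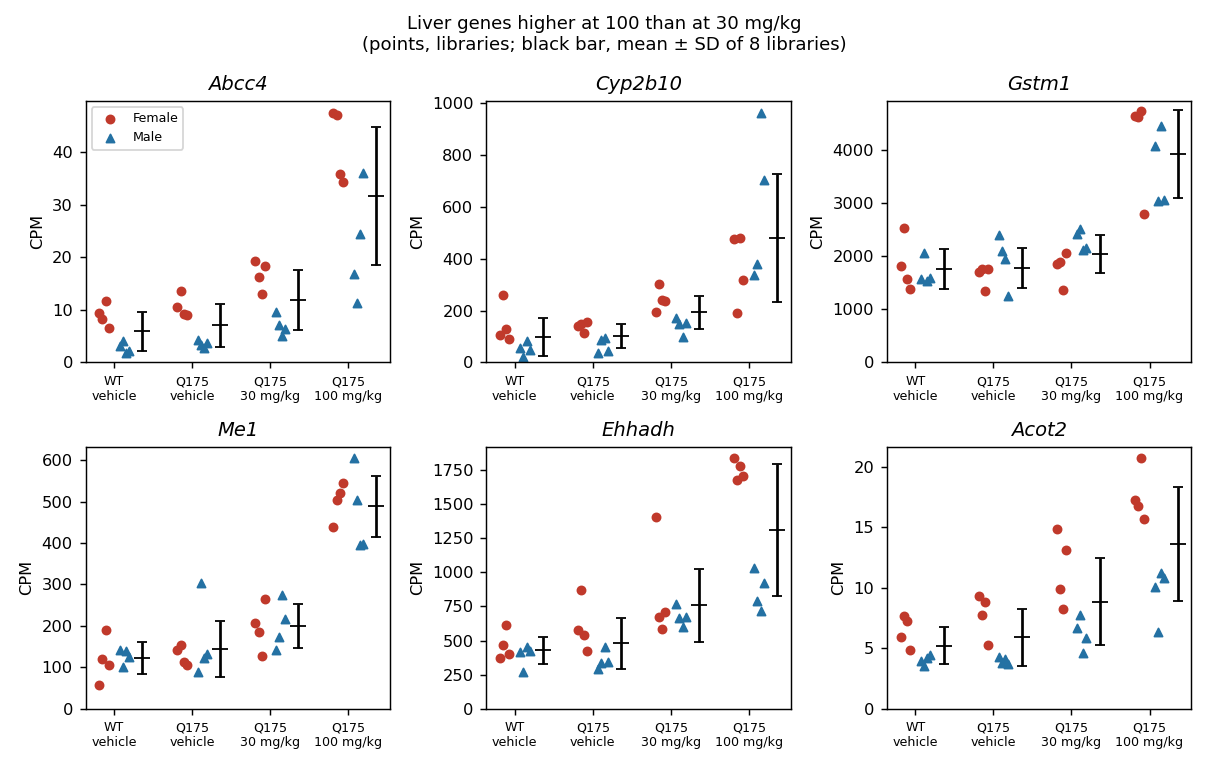
CPM of 6 genes that were higher at 100 than at 30 mg/kg, by treatment arm, with 1 point for each library (red circles, females; blue triangles, males) and the mean ± SD of 8 libraries in black. Me1 and Gstm1 had no overlap between the doses, with medians of 197 and 505 CPM and of 2083 and 4268 CPM, whereas Ehhadh at 30 mg/kg had 1 female library at 1406 CPM among values of 582 to 764 CPM.

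Cyp2b10, the standard marker of CAR activity in mice, had 97.9 to 302 CPM (median 184) at 30 mg/kg and 189 to 963 CPM (median 427) at 100 mg/kg. It rose by 1.48 (SE 0.35, adjusted p = 0.0384), after a value of 0.95 (0.25 to 1.65) at 30 mg/kg against vehicle and 2.43 at 100 mg/kg. The doses were apart in males and overlapped in females, and the call was lost in 11 of the 16 fits that left out a library. Cyp2c29, a further CAR target with close paralogs in the Cyp2c cluster, had 2539 to 4705 CPM (median 3790) and 4490 to 9164 CPM (median 6362), apart in each sex. It rose by 0.89 (SE 0.19, adjusted p = 0.0216), with values of 0.60 and 1.49 against vehicle, and lost its call without 30 mg/kg M2. Ephx1, the microsomal epoxide hydrolase, had 263 to 443 CPM and 395 to 688 CPM and rose by 0.54 (SE 0.11, adjusted p = 0.0158).

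Cyp2c23, a cytochrome P450 that makes epoxides of arachidonic acid, went the opposite way. It had 282 to 447 CPM (median 379) at 30 mg/kg and 171 to 280 CPM (median 238) at 100 mg/kg, with no overlap, and fell by 0.64 (SE 0.10, adjusted p = 0.00113). Against vehicle it was at 0.00 (-0.20 to 0.21) at 30 mg/kg and at -0.64 at 100 mg/kg. It was the 1 called gene among 35 other cytochrome P450 genes tested, whose median was -0.028. Of all genes tested 0.627% were called.

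Further enzymes rose as well, with Aox1 from outside these lists. Pgd and Tkt, of the pentose phosphate pathway, rose by 0.50 (SE 0.12, adjusted p = 0.0363) and 0.45 (SE 0.10, adjusted p = 0.024), from medians of 38.6 and 109.7 CPM to 56.3 and 159 CPM. At 30 mg/kg against vehicle they were at 0.02 and 0.03. Aox1, an aldehyde oxidase, rose by 0.55 (adjusted p = 0.0363), and Entpd5, a nucleotidase of the endoplasmic reticulum, by 0.44 (adjusted p = 0.0296). Pgd, Tkt, Aox1, Entpd5 and Ugt2b34 were named after their values were seen, and lost their calls in 12, 4, 8, 7 and 8 of the 16 fits.

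Most PPARα targets had values above 0 already at 30 mg/kg, although 0 of them passed the test there. Of 20 peroxisomal genes, 2 rose between the doses and 0 fell (median 0.24), while 14 rose at 100 mg/kg against vehicle (median 0.58) and 0 passed at 30 mg/kg (median 0.35, with 20 of 20 values above 0). In a list of 26 other PPARα targets, 2 rose between the doses (Me1 and Mogat1) and 0 fell. Its values there were above 0 for 19 and below 0 for 7 (median 0.29), and leaving out a library gave 1 to 3 that rose. Against vehicle 10 of the 26 rose at 100 mg/kg (median 0.46). At 30 mg/kg 24 values were above 0 and 2 below (median 0.20). Among all genes tested, 0.3% rose between the doses and 4.11% at 100 mg/kg against vehicle. Ehhadh, the bifunctional enzyme of peroxisomal β-oxidation, had 582 to 1406 CPM (median 672) at 30 mg/kg and 714 to 1839 CPM (median 1355) at 100 mg/kg. In females the doses did not overlap, and in males they did. Ehhadh rose by 0.72 (SE 0.18, adjusted p = 0.0487) and was at 0.71 (0.35 to 1.06) at 30 mg/kg against vehicle and at 1.42 at 100 mg/kg. Pex11a, which divides peroxisomes, had 57.9 to 118 CPM and 85.7 to 138 CPM and rose by 0.57 (SE 0.13, adjusted p = 0.0307). At 30 mg/kg against vehicle it was at 0.44 (0.17 to 0.70). Without 30 mg/kg F3, or without 30 mg/kg M2, 0 of the 20 peroxisomal genes passed. Ehhadh lost its call in 12 and Pex11a in 7 of the 16 fits.

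Of 21 mitochondrial genes of fatty acid oxidation, Acot2 alone passed between the doses (median of the list 0.14), and 12 rose at 100 mg/kg against vehicle. The shares of all genes tested that rose were 0.3% and 4.11%. Acot2, a mitochondrial acyl-CoA thioesterase, had 4.60 to 14.9 CPM (median 8.00) and 6.38 to 20.8 CPM (median 13.5), and rose by 0.62 (SE 0.13, adjusted p = 0.0233). It was at 0.60 (0.32 to 0.88) and 1.22 against vehicle, lost its call in 4 of the 16 fits, and has a close neighbouring paralog, Acot1, that may share its reads. Among the fatty acid ω-hydroxylases of the Cyp4a family, 4 of 6 had values above 0 between the doses and 2 below 0, and 0 passed. Cyp4a10 had 668 to 1863 CPM (median 1030) at 30 mg/kg and 910 to 3273 CPM (median 1845) at 100 mg/kg, with overlap (log2 difference 0.77, 95% interval 0.10 to 1.45, adjusted p = 0.302). Cyp4a14 had 869 to 2365 CPM (median 1620) and 1288 to 3624 CPM (median 2457), with a difference of 0.67 (0.08 to 1.26, adjusted p = 0.308). Against vehicle Cyp4a10 was at 0.89 and 1.66 and Cyp4a14 at 0.99 and 1.66. Of the 6 Cyp4a genes, 4 rose at 100 mg/kg against vehicle, and as close paralogs they may share reads.

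Genes of lipid handling gave a few further rises. Mogat1, which starts triglyceride synthesis from monoacylglycerol, had 0.180 to 1.72 CPM (median 1.10) at 30 mg/kg and 1.47 to 5.93 CPM (median 3.73) at 100 mg/kg. Females had 1.09 to 1.72 CPM and 4.89 to 5.93 CPM, males 0.180 to 1.11 CPM and 1.47 to 2.58 CPM, so the doses were apart in each sex. It rose by 1.88 (SE 0.46, adjusted p = 0.0487), and lost its call in 13 of the 16 fits. Pctp, which carries phosphatidylcholine between membranes and was named after its values were seen, had 102 to 173 CPM (median 131) and 156 to 242 CPM (median 196). It rose by 0.55 (SE 0.10, adjusted p = 0.0107) and was at 0.41 and 0.95 against vehicle. Abhd5, which activates the lipase ATGL, had 21.1 to 27.2 CPM and 27.9 to 32.5 CPM, with no overlap, and rose by 0.27 (SE 0.06, adjusted p = 0.0374), with the call lost in 11 of the 16 fits. Of 31 genes of lipogenesis, 2 rose (Me1 and Mogat1) and 0 fell, with a median of 0.25. Among all genes tested the share that rose was 0.3%. Leaving out a library gave 1 to 4 of the 31, with 4 without 30 mg/kg F4, 3 without 100 mg/kg M2 and 1 in 12 of the 16 fits.

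Cs, Dlat, Gpi1, Gbe1 and Prdx3 also rose, and are named after their values were seen. Cs, citrate synthase, had 112 to 155 CPM (median 131) at 30 mg/kg and 168 to 207 CPM (median 187) at 100 mg/kg, with no overlap, and rose by 0.50 (SE 0.09, adjusted p = 0.0107). Dlat, the acetyl-transferring subunit of pyruvate dehydrogenase, had 51.7 to 73.1 CPM (median 58.9) and 69.2 to 98.1 CPM (median 90.7), apart in each sex, and rose by 0.52 (SE 0.09, adjusted p = 0.00336). At 30 mg/kg against vehicle, Cs was at 0.10 and Dlat at 0.16. Gpi1, an enzyme of glycolysis, rose by 0.25 (adjusted p = 0.0313), Gbe1, the glycogen branching enzyme, by 0.57 (adjusted p = 0.039), and Prdx3, the mitochondrial peroxidase of the peroxiredoxin family, by 0.30 (adjusted p = 0.0274). Cs and Dlat kept their calls without any 1 library, while Gpi1, Gbe1 and Prdx3 lost theirs in 10, 12 and 6 of the 16 fits. The list of 49 nuclear genes of oxidative phosphorylation had 0 called genes and a median of 0.092, with 47 values above 0 and 2 below. Against vehicle 49 of the 49 had values above 0 at 100 mg/kg (median 0.14) and 47 at 30 mg/kg (median 0.040).

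The proteasome, which degrades tagged proteins, had 31 members tested, and all 31 had values above 0 between the doses, with a median of 0.20. Of these 1 passed, Psmd14, the deubiquitinase of the proteasome lid, which had 37.1 to 58.5 CPM (median 45.7) at 30 mg/kg and 48.5 to 81.0 CPM (median 60.2) at 100 mg/kg. Psmd14 rose by 0.44 (SE 0.09, adjusted p = 0.0233), and lost its call without 30 mg/kg M2 and without 100 mg/kg M4. Against vehicle 28 of the 31 rose at 100 mg/kg (median 0.29) and 0 at 30 mg/kg (median 0.088). Of all genes tested, 0.3% rose between the doses and 4.11% at 100 mg/kg against vehicle. Between the doses, 0 of the 31 passed without 30 mg/kg M2 and 7 without 30 mg/kg F4. In limma on FPKM with a pseudocount of 0.1, 14 of the 31 passed. Psmd5, a chaperone of proteasome assembly named after its values were seen, rose by 0.33 (adjusted p = 0.024), with the call lost in 5 of the 16 fits.

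**Figure D5:**
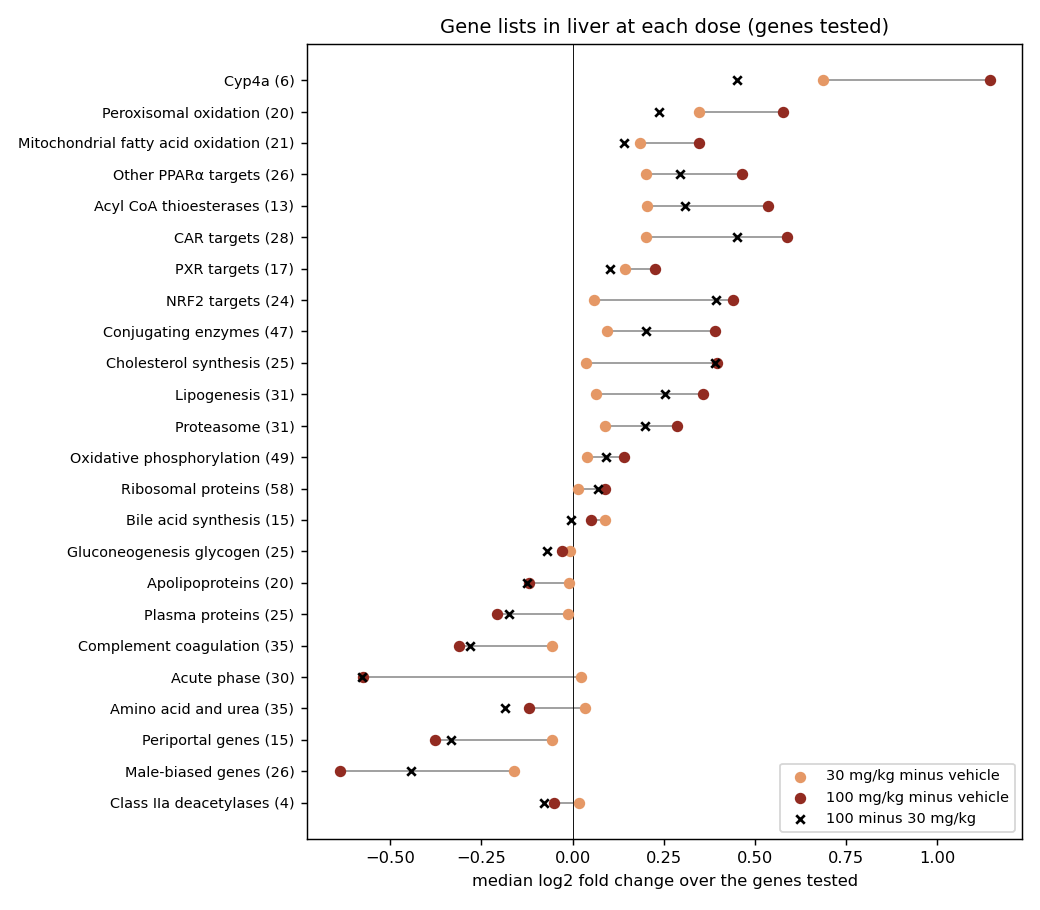
Median log2 fold change of the genes tested in 24 lists at 30 mg/kg (orange) and 100 mg/kg (dark red) against Q175 vehicle, joined by a grey line, with the median between the doses as a cross; the number of genes tested is in brackets. The Cyp4a and peroxisomal lists lay at 0.69 and 0.35 at 30 mg/kg, whereas the NRF2 and complement lists lay at 0.058 and -0.055 there and moved at 100 mg/kg to 0.44 and -0.31.

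Among the remaining genes that fell most, several are known from other tissues and were scarce in liver. Clec2h, a C-type lectin-related gene, had 14.8 to 21.5 CPM in males at 30 mg/kg and 1.16 to 4.06 CPM in males at 100 mg/kg. In females it had 0.111 to 1.57 CPM at 30 mg/kg and 0.0964 to 0.674 CPM at 100 mg/kg, with overlap. Q175 females on vehicle had 2.49 to 5.075 CPM, so in females the level was already lower at 30 mg/kg. Q175 males on vehicle had 6.23 to 39.8 CPM, a range that held all male values at 30 mg/kg. Over both sexes it was at -1.02 (-1.98 to -0.056) at 30 mg/kg and at -3.19 at 100 mg/kg against vehicle. Between the doses Clec2h fell by 2.17 (SE 0.53, adjusted p = 0.0463), the largest fall of the 94, and lost its call in 11 of the 16 fits. Enho, which encodes the secreted peptide adropin, had 3.12 to 12.4 CPM (median 7.52) and 1.79 to 4.18 CPM (median 2.61), and fell by 1.52 (SE 0.30, adjusted p = 0.0112). Adgrf1, an adhesion G-protein-coupled receptor, fell by 1.78 (SE 0.41, adjusted p = 0.0313) from a median of 8.43 to 3.20 CPM, and lost its call in 6 of the 16 fits.

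Grid1, a glutamate receptor subunit of the δ class, had 0.767 to 2.73 CPM and 0.146 to 0.742 CPM, and Fam81a 0.966 to 2.32 CPM and 0.234 to 0.867 CPM, both with no overlap. They fell by 1.43 (adjusted p = 0.0216) and 1.35 (adjusted p = 0.024). Srrm4, a splicing regulator best known from neurons, fell by 1.09 (adjusted p = 0.024), Clca3a1, of the chloride channel accessory family, by 1.09 (adjusted p = 0.00723), and Neb, the muscle protein nebulin, by 1.05 (adjusted p = 0.024). Tent5c, a poly(A) polymerase, fell by 0.91 (adjusted p = 0.024), Sprn, a relative of the prion protein, by 0.88 (adjusted p = 0.0344), and Tigd5 by 0.87 (adjusted p = 0.0233). Tigd5 was 1 of the 2 genes whose 30 mg/kg interval lay on the opposite side, with 0.49 (0.12 to 0.87) at 30 mg/kg and -0.38 at 100 mg/kg against vehicle. The calls of Enho and Clca3a1 held in all 16 fits. Grid1 lost its call without 30 mg/kg M2, Fam81a without 30 mg/kg M1, 100 mg/kg F1 or 100 mg/kg M4, Srrm4 without 30 mg/kg F3, 30 mg/kg M2 or 100 mg/kg F1, and Tigd5 without 30 mg/kg F2, 30 mg/kg F3 or 100 mg/kg F1. Neb, Tent5c and Sprn lost theirs in 5, 4 and 9 of the 16 fits.

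Irf5, Foxo4 and Nox4 also fell, and are given here after their values were seen. Irf5, a transcription factor of inflammatory signalling, had 6.13 to 10.3 CPM (median 8.15) and 3.11 to 6.52 CPM (median 4.10), and fell by 0.86 (SE 0.14, adjusted p = 0.00174), with -0.40 and -1.26 against vehicle. Foxo4, a transcription factor held out of the nucleus by insulin signalling, had 24.4 to 28.6 CPM and 16.9 to 23.4 CPM, with no overlap, and fell by 0.37 (SE 0.06, adjusted p = 0.00113). Nox4, an NADPH oxidase that makes hydrogen peroxide, had 19.7 to 80.3 CPM and 15.5 to 50.7 CPM, with overlap, and fell by 0.60 (SE 0.14, adjusted p = 0.0306), and lost its call in 7 of the 16 fits.

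Among the remaining rises, Odc1 and Ctps, which make polyamines and CTP, rose by 0.54 (SE 0.10, adjusted p = 0.0111) and 0.77 (SE 0.18, adjusted p = 0.0335). Ran, the GTPase of nuclear transport, rose by 0.38 (adjusted p = 0.0131), and Ctsd, the lysosomal protease cathepsin D, by 0.24 (adjusted p = 0.0174). Kbtbd12 rose by 1.31 (adjusted p = 0.024), Mest, of the α/β-hydrolase fold, by 0.62 (adjusted p = 0.0344), Acyp2, an acylphosphatase, by 0.62 (adjusted p = 0.0384), and Casc4 by 0.61 (SE 0.12, adjusted p = 0.0112). Car2, a carbonic anhydrase, rose by 0.60 (SE 0.12, adjusted p = 0.0112), and Ctse, the protease cathepsin E, by 1.68 (SE 0.34, adjusted p = 0.0158) from a median of 0.197 to 0.765 CPM. Odc1, Ran, Car2 and Ctse were named after their values were seen. Pitx3, also named so, rose by 2.47 (adjusted p = 0.0363), but its low group was 30 mg/kg: against vehicle it was at -2.33 (-3.51 to -1.15) at 30 mg/kg and at 0.13 at 100 mg/kg. Its levels were at most 0.283 CPM at 30 mg/kg, 1.57 CPM at 100 mg/kg and 1.88 CPM on vehicle. In females they were at most 0.0293 CPM in each of these arms, so the difference rests on males. Males had 0.0748 to 0.283 CPM at 30 mg/kg and 0.548 to 1.57 CPM at 100 mg/kg. Pitx3, Ctps, Kbtbd12, Mest and Acyp2 lost their calls in 11, 9, 4, 9 and 12 of the 16 fits.

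In several lists no gene passed between the doses. Of 25 genes of cholesterol synthesis, 24 had values above 0 (median 0.39), and 0 passed. The smallest p-values belonged to Acat2, the cytosolic thiolase of its first step, which had 76.6 to 151 CPM (median 85.6) and 117 to 164 CPM (median 127; log2 difference 0.53, 95% interval 0.22 to 0.84, adjusted p = 0.0977), and Pmvk, the phosphomevalonate kinase (0.62, 0.23 to 1.01, adjusted p = 0.132). At 30 mg/kg against vehicle the median of the list was 0.036, and at 100 mg/kg it was 0.40, with 2 genes called. Of all genes tested, 6.85% were called at 100 mg/kg against vehicle. Of 15 periportal genes, those of the hepatocytes nearest the incoming blood, 0 passed and 15 had values below 0 (median -0.33). Hal, the first enzyme of histidine breakdown, was at -0.41 (adjusted p = 0.0713), and Pck1, the enzyme that commits to glucose synthesis, at -0.62 (adjusted p = 0.24). Pck1 was named from 25 genes of gluconeogenesis and glycogen, of which 10 had values above 0 and 15 below (median -0.071). Of 15 pericentral genes 0 passed, with 10 values above 0 and 5 below (median 0.11).

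The acute phase list had a median of -0.58, with 30 of 30 values below 0 and 0 called. It depended on single libraries: without 30 mg/kg F3 the median was -0.38, with 28 of 30 values below 0 and 0 called, and without 30 mg/kg F4 it was -0.64, with 5 called. Without 100 mg/kg M1 or M2, 1 was called. Saa2, a serum amyloid A that surges in inflammation, had 1099 CPM in 30 mg/kg F3, 12.3 to 112 CPM in the other 30 mg/kg libraries and 3.40 to 34.0 CPM at 100 mg/kg. Its difference was -3.63 (adjusted p = 0.0662) with that library and -1.72 (adjusted p = 0.277) without it. Fga, the fibrinogen α chain, had 10490 CPM in the same library, 3410 to 5611 CPM in the other 30 mg/kg libraries and 2846 to 4120 CPM at 100 mg/kg. Its difference was -0.66 (adjusted p = 0.0537) and -0.45 (adjusted p = 0.138). Serpina1e, an α1-antitrypsin paralog named from the list of male-biased genes, differed widely between the sexes. At 30 mg/kg it had 21.5 to 58.4 CPM in females and 891.5 to 4198 CPM in males. At 100 mg/kg it had 7.56 to 16.9 CPM in females and 352 to 1181 CPM in males (log2 difference -1.68, adjusted p = 0.0712). With 30 mg/kg F3 left out, C8a was at -1.28 (adjusted p = 0.0354) and C9 at -1.37 (adjusted p = 0.00211).

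The dose difference was then compared between the sexes with an interaction term. In edgeR 0 of 15001 genes passed, with 1657 genes (11%) at an unadjusted p below 0.05 and a smallest adjusted p of 0.168, and DESeq2 called 50. Without 30 mg/kg F1, 23 genes passed in edgeR. C9 was at -2.36 (95% interval -2.85 to -1.88) in females and at -0.82 (-1.28 to -0.35) in males, C8a at -2.74 and -0.61, and C8b at -1.75 and -0.46. Their interaction terms were 1.55, 2.13 and 1.28, each with an adjusted p of 0.168, so the difference between the sexes missed the threshold for them. Cyp2b13, a P450 that is female-specific in mouse liver, was at 417 to 492 CPM in females at 100 mg/kg and 334 to 508 CPM at 30 mg/kg. In males it had 0.797 to 46.5 CPM and 0.0560 to 1.40 CPM, with an interaction term of 4.72 (adjusted p = 0.208). Of 26 genes known as male-biased, 0 passed between the doses (median -0.44 in edgeR and -0.091 in limma on FPKM). All 45 higher genes had differences above 0, and all 49 lower genes below 0, in both sexes, which the choice of genes over both sexes together favours. For Pitx3 in females the sign rests on levels of at most 0.0293 CPM.

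Markers of other cells were measured beside these results. Ighm, the heavy chain of IgM, had 4.66 to 20.7 CPM (median 13.3) at 30 mg/kg and 10.4 to 70.8 CPM (median 31.2) at 100 mg/kg, with a difference of 1.59 (adjusted p = 0.231). The 17 lymphocyte and neutrophil markers tested had a median of -0.11, with 7 values above 0, 10 below 0 and 0 called. Of 15 Kupffer cell and macrophage markers 0 passed (median 0.20), of 12 endothelial markers 0 (median 0.23), of 15 stellate cell and fibroblast markers 0 (median -0.026) and of 10 cholangiocyte markers 0 (median -0.11). Their part in the differences between the doses was not tested.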

How the data were processed

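Per the labels, total RNA (Qiagen miRNeasy kit) went into Illumina libraries. The submitters' processing notes name CASAVA 1.8.2; aligner, build, annotation, counting program and use of strand are each not given in the sources used here. The authors deposited estimated counts and FPKM, which are fragments scaled to gene length and depth, for 43432 genes. Of the liver's estimated counts above 0, 27.5% were not whole (tolerance 0.001) and were rounded. Gene symbols came from a reference table that matched 42462 identifiers and left 970 unmatched.

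The 32 liver libraries, with 8 in each of 4 groups, were fitted together in R 4.3.3 with edgeR 4.0.16: filterByExpr, TMM, robust dispersions, group and sex as terms, quasi-likelihood F tests, and Benjamini-Hochberg adjustment over 15001 genes with a threshold of 0.05. All adjusted p-values come from this test unless another tool is named. Standard errors were taken from the F statistics. CPM are counts scaled to a common library size with TMM. Alternatives were DESeq2 1.42.0, limma 3.58.1 on log2(FPKM + 0.1) or log2(FPKM + 1), other filters and terms, and leaving out each of the 16 libraries of a contrast. Each liver library's label carries its own animal number, so p-values measure the spread between animals. Depth sets only the counting error, and no molecular identifiers are described. The script was tested on simulated data.

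The comparison, the gene lists and the rule for named genes were chosen with earlier results of these data known. The rule took Htt, the class IIa deacetylases, Cyp4a10 and Cyp4a14, the 15 largest rises and 15 largest falls among called genes with at least 1 CPM and a proper symbol, and, for each list, up to 3 called genes in each direction or, with none called, the 2 with the smallest p. Y-linked genes and Xist were left out.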

Additional observations from a re-analysis of the deposited data

Results flagged for a closer look

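Within each dose group, each gene named was examined for a library that stood apart from the other 7, by Dixon's ratio of its gap to the range at the 95% level. Of 164 such sets 14 had one. The nominal rate of 1 in 20 assumes independent sets of normal values. These were CPM of groups that mixed the sexes, and the genes share libraries, so the 14 cannot be set against chance. In 30 mg/kg F3, Saa2 was at 1099 CPM (nearest library 111.5), Fga at 10490 CPM (nearest 5611), Cpn2 at 442.1 CPM (nearest 361.3), Clca3a1 at 17.71 CPM (nearest 10.05) and Hdac4 at 11.16 CPM (nearest 8.506). In 30 mg/kg F4, Acat2 was at 151.4 CPM (nearest 95.47), Pgd at 59.9 CPM (nearest 42.52) and Gstm4 at 120.8 CPM (nearest 90.14). Ehhadh was at 1406 CPM in 30 mg/kg F1 (nearest 764.1), Adgrf1 at 26.96 CPM in 30 mg/kg M2 (nearest 13.43) and Hal at 826.3 CPM in 30 mg/kg M1 (nearest 603.4). In 100 mg/kg M4, Ctps was at 7.537 CPM (nearest 4.731) and Abhd5 at 32.52 CPM (nearest 30.1), and in 100 mg/kg F2 Hdac7 was at 12.71 CPM (nearest 8.4). Each of these libraries was the highest of its group. What set them apart was not tested.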

How the results depend on the processing

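The count of 94 genes between the doses became 279 with DESeq2, 61 with no filter on low counts, 184 and 191 in limma on FPKM with pseudocounts of 0.1 and 1 (155 higher and 36 lower for the second), 36 without sex in the model, 4 in males, 11 in females, 52 with the library total as an added covariate, and 40 to 236 over the fits that left out a library. With median-ratio size factors, a stricter filter, only the 2 groups or the form of the column name as a covariate it was 93, 119, 100 and 113. With the replicate number as a block 76 genes passed, 67 of them among the 94, but same-numbered libraries of the doses correlated between -0.18 and 0.211, over 0.1 for 2 of 8 numbers, so the numbers do not pair them. Without the libraries with markers of another tissue (30 mg/kg F1 and 3 vehicle libraries) 74 passed. The count at 100 mg/kg against vehicle became 542 without sex, 21 in males, 199 in females, 599 without those libraries, and 652 to 1055 with a library left out. At 30 mg/kg against vehicle it was 4 with DESeq2 and 0 to 3 with a library left out. The interaction gave 50 genes with DESeq2, 44 without those libraries and 0 to 23 with a library left out. Of the 66 called genes named, 26 kept their call in every fit that left out a library and 20 in every alternative apart from those in 1 sex or without sex as a term. Changes of sign arose only for uncalled genes: Hdac7 was at 0.011 and 0.015 in limma, 0.0023 without sex, 0.20 in females, 0.046 without 30 mg/kg M2 and 0.014 without 100 mg/kg M3 (-0.12 to 0.046 with a library left out), Hdac9 at 0.037 in males, and Htt at 0.033 without 100 mg/kg F3 (-0.12 to 0.033 with a library left out). The cause of these changes was not tested.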
